A study of Mus musculus with 8 samples.

Results

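Splicing factors and RNA helicases were followed in cultured macrophages that lack PAD4 and in wild-type macrophages. A gene was a member when its symbol began with Srsf, Hnrnp, Sf3a, Sf3b, Snrp, Ddx or Dhx with a number, Rbm with a number, or Prpf, when it was not Ddx58, Dhx58 or Ddx3y, and when its mean over the 8 libraries was at least 1 FPKM (fragments per length of transcript, scaled to the size of the library). Of 100 matching genes 99 passed this minimum, out of 6287 genes in the table. Ddx60, at a mean of 0.716 FPKM, was the gene left out, and Prpf40b, at 1.49 FPKM, was the member nearest the minimum. The tested group held 4 libraries of bone marrow derived macrophages from PAD4-/- mice, and the control group held 4 libraries of such cells from WT mice. These are primary macrophages grown from marrow, and PAD4, encoded by Padi4, is an enzyme that turns arginine in proteins into citrulline. All 8 sample titles carry the tag con, which the titles do not explain. The labels name no added agent, allele design, strain, sex or age. Padi4 itself was not analysed here, which leaves the genotypes as labelled, with no check by that gene. The samples are described as independent, yet the labels tie none of them to an animal or culture, and p-values here rest on the spread among libraries, which may in part be technical.

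A pre-mRNA is spliced by the spliceosome, which is built from small nuclear ribonucleoproteins (snRNPs), each an RNA held in a ring of Sm proteins with its own partner proteins. SR proteins, rich in arginine and serine, mostly promote the use of exons they bind, whereas hnRNP proteins often repress them, so the balance of both sets which exons are kept. DEAD-box and DEAH-box helicases use ATP to open or remodel RNA at each step of splicing, and others of the family work in ribosome assembly, translation and the sensing of viral RNA. In macrophages, alternative splicing and mRNA decay by such proteins shape the output of inflammatory genes.

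The table held macrophage identity genes at high levels in every library. Of 12 macrophage markers 9 were listed, and their summed level was 19738 to 25572 FPKM in PAD4-/- and 18174 to 18751 FPKM in WT. Markers of osteoclasts, which grow from the same precursors, had a summed level of 18.3 to 21.1 FPKM in PAD4-/- and 25.15 to 27.6 FPKM in WT over the 4 listed. Of the 3 that were tested, Ctsk fell to a ratio of 0.448 and Acp5 to 0.710 (limma adjusted p = 0.00130 and 0.00973), and Nfatc1 did not pass. The 4 dendritic cell markers listed summed to 24.7 to 29.4 FPKM in PAD4-/- and 23.2 to 25.9 FPKM in WT, nearly all of it Irf8, which did not pass. The part of these cell types in the results below was not tested. Lcn2 alone stood for neutrophils (0.31 to 0.52 FPKM in PAD4-/- and 0.52 to 1.13 FPKM in WT), and Col3a1 and Pdgfra for fibroblasts (summed 0.38 to 0.84 FPKM in PAD4-/- and 0.21 to 0.43 FPKM in WT). Markers of T, NK, B, mast and erythroid cells were not analysed here. PAD4-/- replicates 3 and 4 stood apart. The median of 22 interferon-response genes lay 0.028 and 0.046 above the WT mean on the log2 scale in PAD4-/- replicates 1 and 2 but 1.40 and 1.15 above it in replicates 3 and 4. Of 8 cell cycle genes 1 rose and 2 fell. Mki67 rose to a ratio of 1.32 and was highest in replicates 3 and 4, whereas Pcna, which made up most of the list's summed level, had 588, 506, 414 and 402 FPKM in PAD4-/- and 620, 631, 685 and 644 FPKM in WT, so the list did not move one way. Results that rest on those libraries are given with and without them.

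The splicing and helicase genes as a whole changed little. Member means in PAD4-/- stood between 0.875 and 1.39 times those in WT, so none of the 99 differed by 1.5-fold, whereas 187 of the 5674 genes tested exceeded that ratio upwards and 79 downwards. The test was limma on log2(FPKM + 1) with Benjamini-Hochberg adjustment over all 5674 genes, and a gene is said to have risen or fallen when its adjusted p was below 0.05. Of the 99 members, 22 rose, 1 fell and 76 did not pass. The members that rose were 22.2% of the list, beside 21.1% of all genes tested, and the 1 that fell was 1.01%, beside 6.61%. The median log2 fold change was 0.084 for members and 0.082 for all tested genes. In bulk samples, less of a transcript per cell and fewer cells that carry it cannot be told apart.

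The number that rose depended on how libraries were scaled, since the median of all tested genes lay 0.082 above 0 on the deposited scale. When libraries were instead matched on the median ratio of their genes (median-of-ratios scaling), 7 members rose and 3 fell, beside 9.24% and 11.1% of all genes tested. The members' median was then -0.0018, with 49 above 0 and 50 below. Quantile normalization gave 8 and 3, beside 8.6% and 9.18%, and limma's array weights gave 37 and 7, beside 39.3% and 13.1%. Without PAD4-/- replicate 4 the number that rose was 14, without WT replicate 2 it was 13, and without PAD4-/- replicate 1 the number that fell was 4. With PAD4-/- replicates 3 and 4 both left out, 16 rose and 1 fell, beside 11.7% and 5.13% of all genes, and 15 of the 16 were among the 22. The 7 whose call was then lost were Ddx54, Ddx11, Dhx30, Hnrnpul2, Rbm12, Rbm4 and Sf3a3, with adjusted p from 0.0600 to 0.188. Median-of-ratios scaling without these libraries gave 4 and 1, beside 4.9% and 7.81%. The PAD4-/- libraries were all above the WT libraries in 29 members and all below in 1, beside 24.0% and 7.12% of all genes, or in 12 and 4 with median-of-ratios scaling, beside 11.9% and 13.4%.

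By library, the members' median difference from the WT mean was 0.11, 0.054, 0.091 and 0.090 on the log2 scale in PAD4-/- replicates 1 to 4. All tested genes had medians of 0.053, 0.063, 0.11 and 0.095 in the same libraries. Both medians were above the WT mean in all 4 PAD4-/- libraries, with replicate 1 the highest for members and replicate 3 the highest for all genes. The largest member change was 0.35, and 0 of 99 reached 0.5 in either direction, against 4.16% of all genes tested. For 74 of the 99 members (74.7%, beside 56.7% of all genes) the 95% interval of the log2 fold change, not adjusted for the number of genes, lay within 0.3 of no change; this bound was picked after the values were seen.

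**Figure D1:**
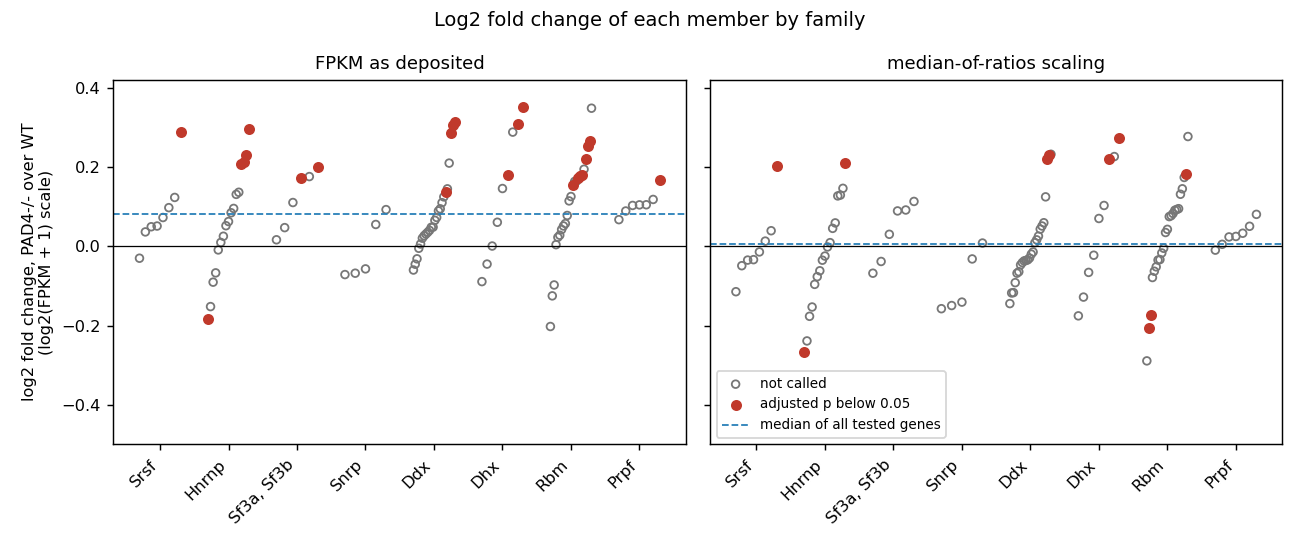
Log2 fold change of each of the 99 members, PAD4-/- over WT, grouped by symbol family on the x axis, on the deposited FPKM scale (left) and with median-of-ratios scaling (right). Filled points passed an adjusted p below 0.05, and the dashed line is the median of all 5674 tested genes (0.082 on the left). Of the 22 filled points above 0 on the left, 7 stay filled on the right, and Hnrnpll is filled below 0 in both.

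The members that passed on both scales were 7 that rose, Dhx9, Ddx17, Ddx42, Dhx30, Hnrnpa0, Srsf9 and Rbm5, and 1 that fell, Hnrnpll. The authors' deposited table listed 9 members at a q-value below 0.05, 7 higher and 2 lower, beside 9.89% and 10.6% of the genes tested here, and all of these 8 were among them in the same direction. The listed member outside these 8 was Rbm18, which was lower. The authors' shares over all genes lay nearer the 9.24% and 11.1% of median-of-ratios scaling than the 21.1% and 6.61% of the main fit.

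Dhx9 encodes a nuclear helicase that unwinds double-stranded RNA and bridges transcription factors to RNA polymerase (chromosome 1, 153455756 to 153487688, GRCm38). It stood at 68.0, 63.7, 71.2 and 66.6 FPKM in the PAD4-/- libraries, against 55.0, 53.5, 55.3 and 53.05 FPKM in the WT libraries. All PAD4-/- libraries were above all WT libraries, with little spread in either group (67.3 ± 3.11 and 54.2 ± 1.09 FPKM, SD, n = 4 each). The log2 fold change was 0.31 (SE 0.043, limma adjusted p = 0.00256); under median-of-ratios scaling it was 0.22 (adjusted p = 0.00725). Dhx9 was called in all 23 alternatives, with adjusted p between 0.000177 and 0.0200.

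Ddx17 encodes a DEAD-box helicase that acts in alternative splicing and microRNA processing and is a close relative of Ddx5 (chromosome 15, 79527696 to 79546764). Its level was 90.6, 97.0, 99.8 and 94.8 FPKM in PAD4-/- and 75.9, 78.1, 80.4 and 74.0 FPKM in WT, and the groups did not overlap. It rose by 0.31 on the log2 scale (SE 0.045, limma adjusted p = 0.00295) and was called in all 23 alternatives (adjusted p 0.000212 to 0.0204). Ddx5 itself, the most abundant helicase member, stood at 241, 226, 225 and 233 FPKM in PAD4-/- and 218, 218, 224 and 219 FPKM in WT. The groups did not overlap, but PAD4-/- replicate 3 and WT replicate 3 nearly met, and Ddx5 did not pass (log2 fold change 0.073, 95% interval -0.012 to 0.16, limma adjusted p = 0.167).

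Hnrnpa0 encodes an hnRNP protein that binds AU-rich mRNA and is a substrate of the stress kinase MAPKAP-K2 in macrophages (chromosome 13, 58125879 to 58128556). It had 30.5, 30.4, 31.1 and 33.2 FPKM in PAD4-/-, against 24.9, 25.3, 24.1 and 27.0 FPKM in WT. Every PAD4-/- library lay above every WT library. The log2 fold change was 0.30 (SE 0.048, limma adjusted p = 0.00422), and the call held in all 23 alternatives (adjusted p 0.000248 to 0.0380).

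Hnrnpll, which encodes a relative of hnRNP L known in mouse T cells for silencing exons of the CD45 gene, was the member that fell (chromosome 17, 80029487 to 80062268). Its level was 19.1, 19.25, 18.7 and 19.5 FPKM in PAD4-/- and 21.7, 22.3, 21.3 and 22.02 FPKM in WT. The change was small, a ratio of 0.875, but the spread was smaller still, with an SD of 0.334 FPKM in PAD4-/- and 0.426 FPKM in WT. The log2 fold change was -0.18 (SE 0.039, limma adjusted p = 0.00999); under median-of-ratios scaling it was -0.27 (adjusted p = 0.00316). Over the 23 alternatives its adjusted p lay between 0.00239 and 0.0362. The authors' deposited table gave a q-value of 4.78e-05 for Hnrnpll, the smallest of any member.

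The promoters of the 3 members that rose in all 23 alternatives are shown as the regulatory sequence of the most stable calls; the data do not bear on binding there. Each stretch is the 150 bases before the start of the first listed RefSeq promoter (GRCm38.p6), 5′ to 3′ on the gene's strand, with capitals for matches on either strand. The GC box was searched as GGGCGG. The motif of ETS factors was searched as CCGGAAG. The box named for its letters, CCAAT, was searched as such.
Dhx9, chr1:153487661-153487810, minus strand: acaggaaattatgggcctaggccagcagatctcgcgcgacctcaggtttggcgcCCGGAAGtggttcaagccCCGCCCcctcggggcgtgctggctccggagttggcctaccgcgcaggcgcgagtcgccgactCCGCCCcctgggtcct
Ddx17, chr15:79546742-79546891, minus strand: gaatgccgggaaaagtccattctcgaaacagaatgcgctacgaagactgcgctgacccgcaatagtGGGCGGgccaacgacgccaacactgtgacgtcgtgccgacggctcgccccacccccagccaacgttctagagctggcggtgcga
Hnrnpa0, chr13:58128557-58128706, minus strand: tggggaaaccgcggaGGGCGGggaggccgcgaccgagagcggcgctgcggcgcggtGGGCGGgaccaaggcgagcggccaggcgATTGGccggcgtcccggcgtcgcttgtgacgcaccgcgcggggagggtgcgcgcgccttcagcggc
All 3 stretches are rich in G and C and hold a GC box, and no capital run in them overlaps another. RefSeq promoters were matched for 84 of the 99 members, and 8 motifs were searched on both strands of the 300-base windows from 250 bases before to 50 after the start. The GC box was in 65.5% of these members, 70.0% of the 20 matched members that rose, 72.4% of tested genes and 35.7% of all promoters. CCGGAAG was in 33.3% of members, 35.0% of those that rose, 22.3% of tested genes and 8.86% of all promoters, and CCAAT in 48.8% of members, 5 of the 20, 42.8% of tested genes and 37.4% of all promoters. The E box, searched as CACGTG, was in 13.1% of members, 13.2% of tested genes and 7.15% of all promoters. The cAMP response element, searched as TGACGTCA, was in 2.38%, 3.67% and 1.79% of the same sets, and the NRF1 motif in 2.38%, 2.40% and 0.971%. The TATA box, searched as TATAAA, was in 14.3%, 8.74% and 13.6%. Shares of members and tested genes count a gene once if any of its windows matched, while shares of all promoters count each window. Counted per gene over all 27025 genes with a promoter, the GC box was in 38.2%, CCGGAAG in 9.93% and CCAAT in 41.1%. On that count the E box was in 8.09%, the cAMP response element in 2.03%, the NRF1 motif in 1.07% and the TATA box in 15.7%. A match describes letters only.

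**Figure D2:**
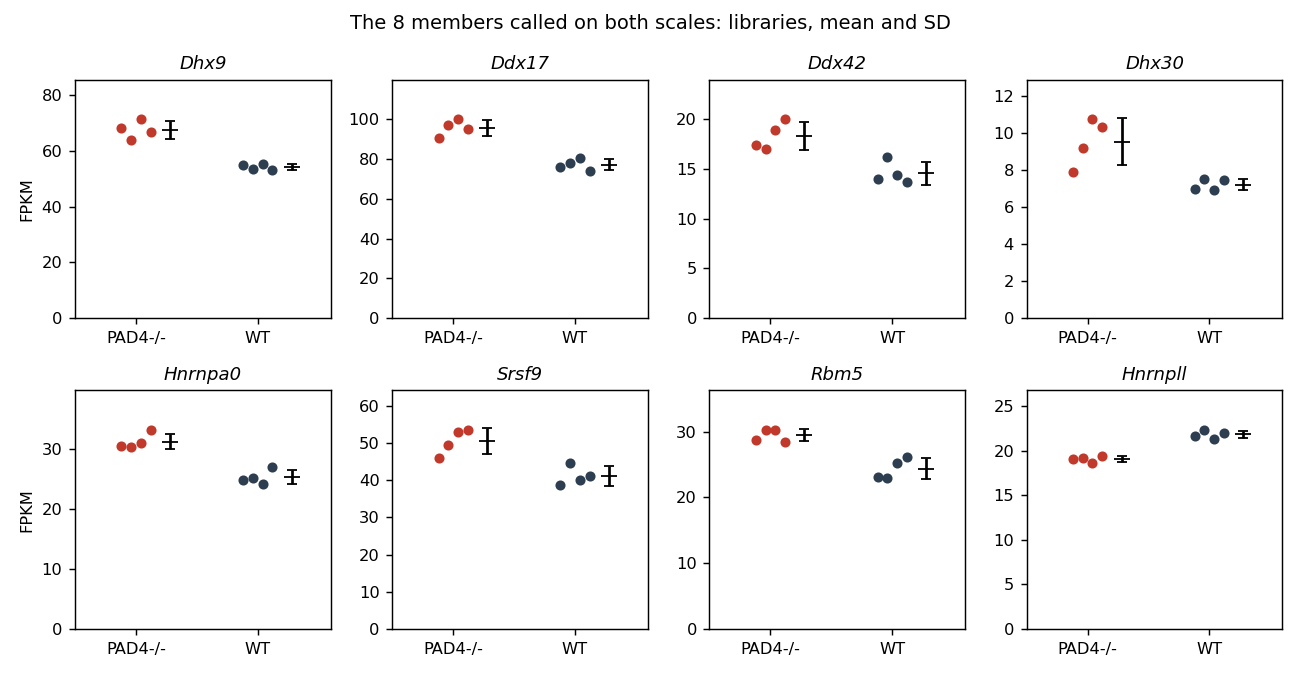
FPKM of the 8 members called on both scales in each PAD4-/- and WT library, with the mean and SD (n = 4 each) beside the points; each y axis starts at 0. For Dhx9 all 4 PAD4-/- libraries lie above all 4 WT libraries (67.3 ± 3.11 and 54.2 ± 1.09 FPKM), and for Hnrnpll all lie below (19.1 ± 0.334 and 21.8 ± 0.426 FPKM).

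Counts by family are read against the 21.1% of all genes tested that rose and the 6.61% that fell. With median-of-ratios scaling these shares were 9.24% and 11.1%. Among DEAD-box helicases 4 of 24 rose (16.7%) and none fell, and 2 of 24 rose (8.33%) with median-of-ratios scaling. Ddx42, whose human protein joins the SF3b complex of the U2 snRNP, was the other that passed on both scales, at 17.4, 17.0, 19.0 and 20.0 FPKM in PAD4-/- and 13.95, 16.2, 14.4 and 13.7 FPKM in WT. The groups did not overlap, and the log2 fold change was 0.31 (SE 0.068, limma adjusted p = 0.0107). The call of Ddx42 was lost when median-of-ratios scaling was joined with leaving out PAD4-/- replicates 3 and 4 (adjusted p = 0.1296) or with the replicate block (adjusted p = 0.0692). Ddx11, named for the DEAD/H box but known as a DNA helicase of sister chromatid cohesion, stood at 1.72, 1.48, 2.0 and 1.91 FPKM in PAD4-/- and 1.42, 1.08, 1.24 and 1.37 FPKM in WT. These were the lowest levels among the members that rose (log2 fold change 0.28, SE 0.080, limma adjusted p = 0.0269), and the call was lost without PAD4-/- replicate 3 or 4, without WT replicate 2 or 3 and with median-of-ratios scaling (adjusted p = 0.0576). Ddx54, a nucleolar helicase of ribosome assembly, rose to a ratio of 1.10 with overlapping groups (adjusted p = 0.0418), and its call was lost in 14 of 23 alternatives. Of 9 spliceosome-linked helicases 2 rose, of 10 ribosome assembly helicases 2 rose, and of 7 helicases of cytoplasmic mRNA, translation and RNA sensing 2 rose, with none lower in any of these groups. The 2 in the last group were Dhx9 and Dhx30, which are described here by a nuclear and a mitochondrial role. The groups, in the order given, had median log2 fold changes of 0.073, 0.069 and 0.031.

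Among DEAH-box helicases and their relatives 3 of 9 rose (33.3%) and none fell, and 2 rose (22.2%) with median-of-ratios scaling. Dhx30, whose human protein serves mitochondrial ribosome assembly, had 7.86, 9.18, 10.7 and 10.3 FPKM in PAD4-/- and 6.94, 7.48, 6.92 and 7.44 FPKM in WT. It had the largest fold change of any member, 0.35 on the log2 scale (SE 0.084, limma adjusted p = 0.0148). Replicates 3 and 4 were its highest, and without both the change was 0.21 and no longer passed (adjusted p = 0.0600). Dhx37, a helicase of small ribosomal subunit assembly, rose to a ratio of 1.15 (adjusted p = 0.0339) but not with median-of-ratios scaling (adjusted p = 0.224). Dhx15, which releases the intron lariat from the spent spliceosome, was the most abundant of the family at 84.9, 76.0, 73.5 and 77.0 FPKM in PAD4-/- and 84.2, 83.6, 85.9 and 77.4 FPKM in WT. Its groups overlapped and it did not pass (log2 fold change -0.089, 95% interval -0.21 to 0.031, adjusted p = 0.224).

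Of 17 hnRNP members 4 rose (23.5%) and 1 fell (5.88%), while median-of-ratios scaling left 1 in each direction (5.88% each). Hnrnpd, also called AUF1, which binds AU-rich mRNA, had 8.08, 8.12, 8.08 and 8.40 FPKM in PAD4-/- and 7.01, 7.13, 7.05 and 6.61 FPKM in WT. Its relative Hnrnpdl had 32.8, 30.0, 31.2 and 31.6 FPKM in PAD4-/- and 24.8, 26.6, 28.4 and 26.7 FPKM in WT. In both genes all PAD4-/- libraries lay above all WT libraries, with ratios of 1.18 for each (limma adjusted p = 0.0119 and 0.0111). Neither passed with median-of-ratios scaling (adjusted p = 0.0714 and 0.0682). Hnrnpul2, a relative of the nuclear matrix protein hnRNP U, rose to a ratio of 1.16 and was highest in replicates 3 and 4, at 45.2 and 46.0 FPKM against 36.2 to 37.2 FPKM in WT; without them the adjusted p was 0.0727.

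The core hnRNP proteins were among the most abundant members and did not pass. Hnrnpa2b1, a reader and packaging protein of nuclear RNA and the highest member of all, had 282, 245, 254 and 267 FPKM in PAD4-/- and 264, 258, 273 and 235 FPKM in WT. Its groups overlapped (log2 fold change 0.025, 95% interval -0.11 to 0.16, limma adjusted p = 0.766). Hnrnpf had 237 ± 7.47 FPKM in PAD4-/- and 227 ± 7.96 FPKM in WT, and Hnrnpk had 164 ± 8.24 and 165 ± 6.87 FPKM. Hnrnpa1, the classic repressor of exons, stood at 126, 113, 93.6 and 94.4 FPKM in PAD4-/- and 119, 120.4, 118 and 113 FPKM in WT. Replicates 3 and 4 were the low libraries, the gene did not pass (log2 fold change -0.15, adjusted p = 0.203), without both of them the log2 fold change was 0.016 (adjusted p = 0.851), and without PAD4-/- replicate 1 the gene passed (-0.23, adjusted p = 0.0213). Hnrnpa1 has many processed copies in the genome. The submitters' processing notes name RSEM without settings, so how reads were divided among these copies cannot be checked here.

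Of 8 SR proteins 1 rose on either scale. Srsf9, a short SR protein that binds exonic enhancers (chromosome 5, 115327163 to 115333843), had 46.0, 49.45, 53.1 and 53.5 FPKM in PAD4-/- and 38.7, 44.7, 40.0 and 41.2 FPKM in WT. The groups did not overlap (log2 fold change 0.29, SE 0.061, limma adjusted p = 0.010), although WT replicate 2 came close to PAD4-/- replicate 1. With median-of-ratios scaling and without replicates 3 and 4 the adjusted p was 0.136. Srsf1, the founding member of the family, had 25.5 ± 1.01 FPKM in PAD4-/- and 23.3 ± 0.747 FPKM in WT and did not pass (adjusted p = 0.0635), and Srsf5, the most abundant, had 131 ± 7.64 and 125 ± 9.11 FPKM (adjusted p = 0.385). The other members, Srsf3, Srsf6, Srsf7, Srsf10 and Srsf11, had log2 fold changes from -0.030 to 0.097.

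In the SF3a and SF3b complexes, which hold the U2 snRNP on the branch site of the intron, all 6 members had a positive log2 fold change, as did 4008 of the 5674 genes tested, and 2 passed. With median-of-ratios scaling 4 of the 6 were above 0 and none passed. Sf3b1, the largest subunit, stood at 51.95, 53.1, 54.4 and 54.3 FPKM in PAD4-/- and 45.7, 46.8, 48.3 and 45.1 FPKM in WT. The groups did not overlap (log2 fold change 0.20, SE 0.039, limma adjusted p = 0.00785). With median-of-ratios scaling the log2 fold change was 0.11 (adjusted p = 0.0544) and the call was not kept. It was kept in 19 of 23 alternatives, quantile normalization among them. Sf3a3 had a ratio of 1.13 (adjusted p = 0.0437), a call lost without any 1 of PAD4-/- replicates 1 to 4 or WT replicates 1, 2 and 4. Summed FPKM over the 6 members were 185 ± 4.15 in PAD4-/- and 169 ± 4.21 in WT.

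Of 5 Sm and snRNP proteins none passed on either scale, and the smallest adjusted p was 0.342 on the deposited scale. Snrpb, which encodes the SmB ring protein, had 178, 183, 196 and 189 FPKM in PAD4-/- and 175, 176, 183 and 184 FPKM in WT. The groups overlapped (95% interval of the log2 fold change -0.041 to 0.15). Snrpa1, a U2 snRNP protein, had a log2 fold change of -0.068 (95% interval -0.20 to 0.059). Snrpd3, another Sm ring protein, fell when PAD4-/- replicate 1 was left out (log2 fold change -0.14, adjusted p = 0.0497). The family's median was -0.057, and -0.14 with median-of-ratios scaling.

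Of 7 Prpf members 1 rose and none fell, and none passed with median-of-ratios scaling. Prpf8, the large U5 snRNP protein at the catalytic centre, had 51.9, 56.0, 55.9 and 52.7 FPKM in PAD4-/- and 47.1, 46.9, 48.6 and 49.9 FPKM in WT. The groups were apart (log2 fold change 0.17, SE 0.043, limma adjusted p = 0.0197), but the call was lost without PAD4-/- replicate 3 or WT replicate 1 or 2 and with median-of-ratios scaling (adjusted p = 0.192). Prpf38b had 41.1 ± 1.89 FPKM in PAD4-/- and 37.7 ± 0.918 FPKM in WT (adjusted p = 0.0686).

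Of 23 Rbm members 7 rose (30.4%, beside 21.1% of all genes tested) and none fell on the deposited scale. Median-of-ratios scaling left 1 higher and 2 lower (4.35% and 8.7%, beside 9.24% and 11.1%). Rbm5, which regulates exon choice in genes of apoptosis (chromosome 9, 107740495 to 107771007), had 28.8, 30.2, 30.2 and 28.5 FPKM in PAD4-/- and 23.0, 22.9, 25.2 and 26.15 FPKM in WT. The groups were apart (log2 fold change 0.27, SE 0.052, limma adjusted p = 0.00777), and the call was lost in 1 of 23 alternatives, median-of-ratios scaling with a replicate block (adjusted p = 0.0766). Rbm47, a cofactor of APOBEC1 editing, had 28.1 ± 0.407 FPKM in PAD4-/- and 24.8 ± 0.554 FPKM in WT (adjusted p = 0.0104; after median-of-ratios scaling, adjusted p = 0.106). Rbm12 rose to a ratio of 1.21 (adjusted p = 0.0210), a call lost in 8 of 23 alternatives, among them median-of-ratios scaling (adjusted p = 0.0936), leaving out PAD4-/- replicate 4 or WT replicate 3, and leaving out PAD4-/- replicates 3 and 4 (adjusted p = 0.0749). The 2 that fell with median-of-ratios scaling were Rbm18 and Rbm45, whose deposited values were 14.7 ± 0.422 and 7.01 ± 0.252 FPKM in PAD4-/- and 16.2 ± 1.22 and 7.57 ± 0.397 FPKM in WT. Their limma adjusted p-values were 0.0318 and 0.0363 on that scale, and 0.115 and 0.177 on the deposited scale. The authors' own log2 fold changes were -0.22 for Rbm18 (q-value 0.0354) and -0.20 for Rbm45 (q-value 0.259).

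**Figure D3:**
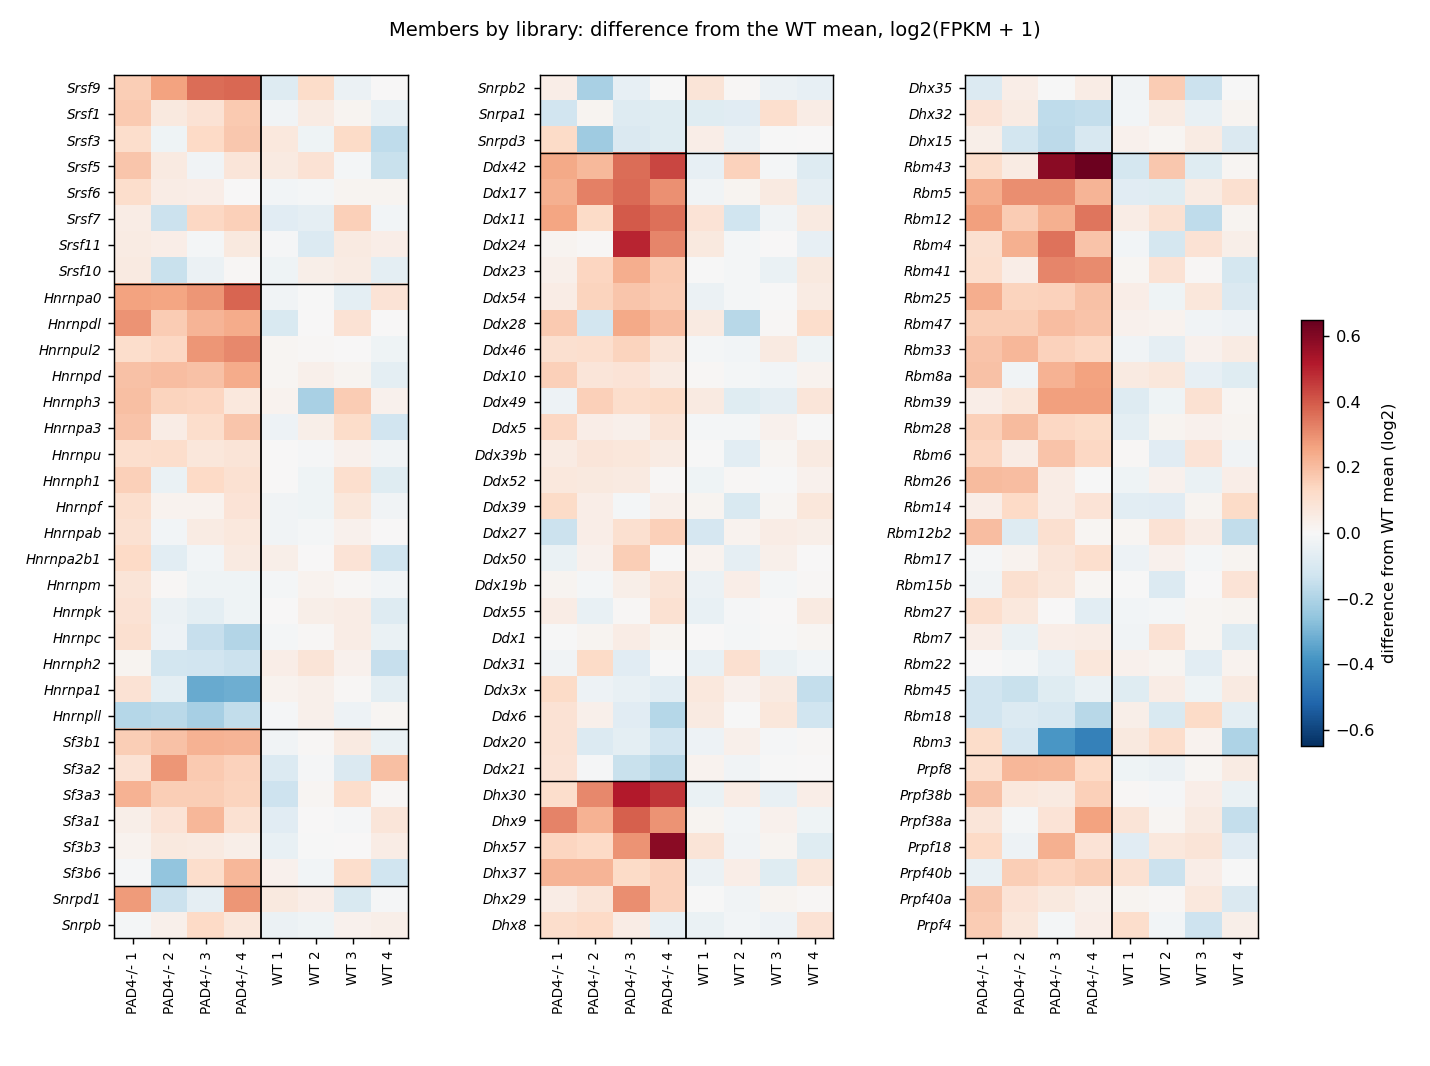
Difference of each member from its WT mean on the log2(FPKM + 1) scale, in the 4 PAD4-/- libraries (left of the line) and the 4 WT libraries (right), with families separated by lines and members ordered by fold change within each. Most cells are pale; Dhx9, Ddx17, Hnrnpa0 and Rbm5 are red in all 4 PAD4-/- libraries, Hnrnpll is blue in all 4, and Rbm43, Ddx24, Hnrnpa1 and Rbm3 depart mainly in replicates 3 and 4.

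Some members varied widely among the PAD4-/- libraries. The median SD of members on the log2 scale was 0.073 in PAD4-/- and 0.065 in WT, beside 0.099 and 0.066 for all tested genes, and the 6 members with the largest SD in PAD4-/- were Rbm43, Rbm3, Ddx24, Snrpd1, Dhx57 and Hnrnpa1. Rbm43 had 4.09, 3.88, 6.07 and 6.30 FPKM in PAD4-/- and 3.35, 4.31, 3.45 and 3.75 FPKM in WT. Ddx24, a nucleolar helicase also known to restrain RIG-I signalling, had 33.4, 33.2, 46.9 and 41.4 FPKM in PAD4-/- and 34.6, 32.7, 33.05 and 31.8 FPKM in WT. Both were high in replicates 3 and 4 only, the libraries with the raised interferon-response median given above, and the part of that response in these values was not tested. Neither passed (adjusted p = 0.0823 and 0.139), and with those libraries left out the log2 fold changes were 0.084 and 0.013. Dhx57 was highest in replicate 4, at 3.55 FPKM against 1.87 to 2.21 FPKM in WT (adjusted p = 0.0557). Ddx60, the interferon-inducible helicase just under the minimum, was listed at 0.44, 0.57, 1.61 and 1.17 FPKM in PAD4-/- and 0.40, 0.63, 0.50 and 0.41 FPKM in WT.

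Rbm3, a cold-inducible RNA-binding protein and the most abundant Rbm member, went the other way, with 147, 125, 104 and 99.6 FPKM in PAD4-/- and 141, 147, 137 and 118 FPKM in WT. Its 2 lowest libraries were PAD4-/- replicates 3 and 4. Rbm3 did not pass (log2 fold change -0.20, 95% interval -0.48 to 0.073, adjusted p = 0.227), and it was at 0.0036 without replicates 3 and 4. Snrpd1, an Sm ring protein, split the PAD4-/- libraries in another way, at 32.4 and 32.6 FPKM in replicates 1 and 4 and 24.01 and 25.4 FPKM in replicates 2 and 3, against 24.7 to 27.7 FPKM in WT.

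The upstream part of the Rbm43 promoter is shown because it holds the letters of an interferon-stimulated response element on the opposite strand more than once in a row. The stretch is the first 150 bases of the first of 2 listed RefSeq windows (GRCm38.p6), with capitals for that element, the CCAAT box and the TATA box on either strand; the run in the middle starts with a CCAAT box that shares its last base with the first element.
Rbm43, chr2:51935264-51935413, minus strand: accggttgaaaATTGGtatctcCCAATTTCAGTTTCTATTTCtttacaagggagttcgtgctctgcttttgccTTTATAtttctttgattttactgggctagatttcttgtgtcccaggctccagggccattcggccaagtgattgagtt
The element was in 5.95% of the 84 matched members, 4.29% of tested genes and 3.99% of all genes with a promoter, or 3.44% of all promoters counted by window. Besides Rbm43 these members were Ddx49, Prpf40b, Rbm28 and Rbm41. Rbm41 was highest in PAD4-/- replicates 3 and 4, whereas Ddx49, Prpf40b and Rbm28 did not stand out there. The window of Ddx24, also high in those libraries, held no such element. This gene and motif were picked after the values were seen.

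**Figure D4:**
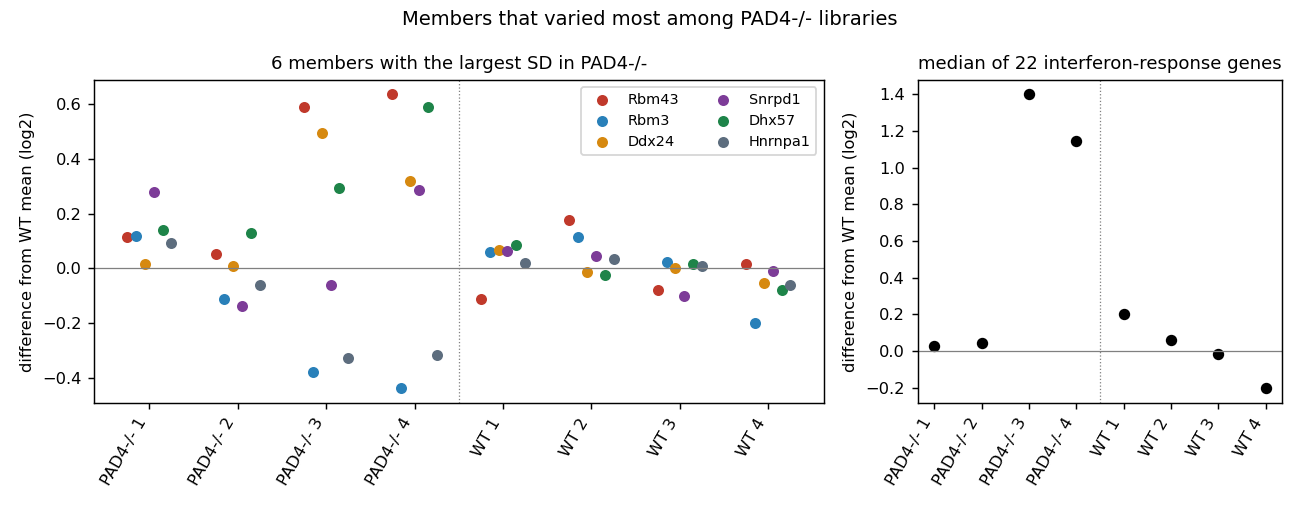
Left, difference from the WT mean (log2) in each library for the 6 members with the largest SD among PAD4-/- libraries; right, the median difference over 22 interferon-response genes in the same libraries. Rbm43 and Ddx24 are high and Rbm3 and Hnrnpa1 low in PAD4-/- replicates 3 and 4, where the interferon-response median is 1.40 and 1.15.

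Ratios of related members within a library do not depend on how the library was scaled. Of 13 pairs of related genes, set out after the values were seen and so given without a test, 3 had ratios that did not overlap between genotypes, all higher in PAD4-/-. Ddx17, Hnrnpa0, Rbm5 and Srsf9, which rose, were set over relatives that did not pass, a choice that favours higher ratios in PAD4-/-. The ratio of Ddx17 to Ddx5 was 0.376, 0.429, 0.444 and 0.407 in PAD4-/- and 0.348, 0.359, 0.359 and 0.338 in WT. The ratio of Hnrnpa0 to Hnrnpa1 was 0.243, 0.269, 0.332 and 0.3515 in PAD4-/- and 0.208, 0.2099, 0.204 and 0.239 in WT, and it was highest in replicates 3 and 4. Rbm26 to Rbm27, a pair of zinc-finger RNA-binding proteins, averaged 1.03 ± 0.0298 in PAD4-/- and 0.962 ± 0.0323 in WT (SD, n = 4 each). These groups nearly met, with 0.998 the lowest ratio in PAD4-/- and 0.993 the highest in WT. In the other 10 pairs the groups overlapped. Hnrnpdl to Hnrnpd, both of which rose, kept a ratio of 3.85 ± 0.161 in PAD4-/- and 3.84 ± 0.244 in WT, and Srsf7 to Srsf3 was 0.654 ± 0.0259 and 0.678 ± 0.0595.

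**Figure D5:**
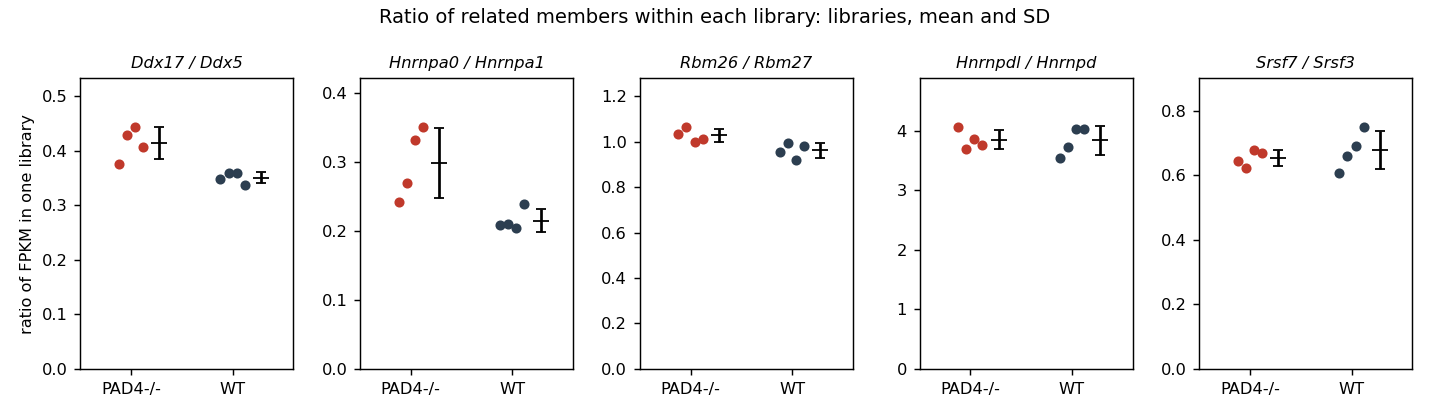
Ratio of FPKM of related members within each library, with mean and SD (n = 4 each), PAD4-/- left of WT; each y axis starts at 0. Ddx17 to Ddx5, Hnrnpa0 to Hnrnpa1 and Rbm26 to Rbm27 do not overlap between genotypes, whereas Hnrnpdl to Hnrnpd (3.85 ± 0.161 and 3.84 ± 0.244) and Srsf7 to Srsf3 do.

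Members that rose had longer transcripts than those that did not pass. The longest annotated transcript (GENCODE vM21, GRCm38) had a median of 4540.5 bases over the 22 members that rose and 3049.5 bases over the 76 that did not pass. Across genes, Spearman's rho between this length and the log2 fold change was 0.24 over the 99 members and 0.12 over 5609 tested genes with a length; genes within a sample are not independent replicates. With the trend on transcript length removed from each library, a step that also centres the values, the counts were 7 that rose and 3 that fell, beside 9.31% and 10.6% of the genes with a length.

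Splicing genes outside the symbol rule, from lists chosen with earlier results of these data known, are read against the same 21.1% of all genes tested that rose and 6.61% that fell. Of 5 U2AF and branch site proteins none passed (median log2 fold change 0.10), with Sf1 and U2af2 at ratios of 1.08 and 1.09 (adjusted p = 0.0528 and 0.0583). Of 6 other snRNP and tri-snRNP proteins none passed (median 0.10), with Sart1 and Pdcd7 at 1.12 and 1.11 (adjusted p = 0.0692 and 0.109). Of 13 Prp19 complex and catalytic step proteins 2 rose (median 0.078). Srrm2, a large scaffold of nuclear speckles, had 59.1, 64.15, 65.6 and 60.2 FPKM in PAD4-/- and 52.6, 52.45, 51.9 and 51.5 FPKM in WT, and the groups did not overlap. It passed on both scales (limma adjusted p = 0.00517 and 0.0239), whereas Pnn, at a ratio of 1.12, passed on the deposited scale only (adjusted p = 0.0161 and 0.203).

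Of 18 SR-like regulators and SR kinases 7 rose (38.9%) and none fell (median 0.10), and 2 rose (11.1%) with median-of-ratios scaling. The kinase genes Cdk11b and Cdk13, which link transcription to splicing, had ratios of 1.16 and 1.19 (limma adjusted p = 0.00828 and 0.00904, and 0.0491 and 0.0498 with median-of-ratios scaling). Of 29 other RNA-binding splicing regulators 5 rose and none fell (median 0.082). With median-of-ratios scaling 3 rose (10.3%, beside 9.24% of all genes tested) and 1, Fubp1, fell (3.45%, beside 11.1%). Khdrbs1, which encodes Sam68, and Raver1, a partner of the exon repressor PTBP1, rose to ratios of 1.18 and 1.28 and passed on both scales (limma adjusted p = 0.00634 and 0.0117 on the deposited scale).

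Of 12 RNA helicases with other names 2 rose and 1 fell (median 0.15). Dicer1, the nuclease that cuts microRNA precursors, had 6.88, 7.36, 8.07 and 7.79 FPKM in PAD4-/- and 6.06, 6.27, 6.37 and 5.94 FPKM in WT (limma adjusted p = 0.0127). The groups did not overlap, but replicates 3 and 4 were the highest and without them the call was lost (log2 fold change 0.18, adjusted p = 0.0663). The gene that fell was Eif4a1, the abundant DEAD-box helicase of translation initiation, named here after its values were seen. It stood at 505, 462, 431 and 455 FPKM in PAD4-/- and 508, 504, 549 and 512 FPKM in WT, so that PAD4-/- replicate 1 lay within the WT range and the others below it. Its ratio was 0.895 (adjusted p = 0.0469; on the median-of-ratios scale 0.0208), and without replicates 3 and 4 the adjusted p was 0.207. Of 13 genes of the exon junction complex, nonsense-mediated decay and mRNA export 2 rose (median 0.093), Nxf1 at a ratio of 1.15 and Thoc2 at 1.12 (adjusted p = 0.0255 and 0.0470). Neither passed with median-of-ratios scaling or without PAD4-/- replicates 3 and 4 (adjusted p = 0.0929 and 0.0795).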

How the data were processed

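The deposited table gives FPKM per gene to 2 decimals for 8 libraries; GRCm38, HISAT, Bowtie2 and RSEM are named in the submitters' processing notes, without versions or settings. Its log2 fold changes and q-values (adjusted p-values) are the authors' own, from a test that no source used here states. FPKM hold no counts, so that depth is unknown and counting error cannot be stated. Groups came from the sample titles. FPKM summed to 381573 to 403848 per library over the listed genes.

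Genes with a mean of at least 1 FPKM (5674) were tested on log2(FPKM + 1) by limma 3.58.1 (R 4.3.3; eBayes with trend and robust options; two-sided p, Benjamini-Hochberg adjustment). Fold changes on this scale understate the change of low genes. The procedure was run on simulated data with independent noise for each gene and library. Those data held no shift shared by genes within a library, so that run does not bear on such shifts. Members and lists were chosen with earlier results of these data known. Genes were named by rule: the 10 largest changes each way with groups apart, the 2 smallest adjusted p and the most abundant gene per family, and 2 genes per outside list, of which 1 is not reported here; Ddx54, Dhx37, Hnrnpd, Hnrnpul2, Hnrnpf, Hnrnpk, Hnrnpa1, Rbm18, Rbm45, Snrpd3, Eif4a1, Ctsk, Acp5, Nfatc1, Irf8, Mki67, Pcna, Rbm4 and the members in the paragraphs on spread and ratios were added after their values were seen. Gene coordinates and promoters are RefSeq GRCm38.p6, matched by gene ID. Alternatives covered pseudocount, filter, scaling, limma settings, a replicate block and left-out libraries; removal of the length trend was added after the data were seen.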

Additional observations from a re-analysis of the deposited data

Results flagged for a closer look

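Among 76 groups of 4 libraries, over the 38 genes named by rule, 1 held a library far from the others. Sart1, a protein of the U4/U6.U5 tri-snRNP, was at 16.21 FPKM in PAD4-/- replicate 1, against 18.76, 18.70 and 19.10 FPKM in the other PAD4-/- libraries and 15.71 to 17.15 FPKM in WT, so that this library lay within the WT range. Chance flags about 1 in 20 such groups.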

How the results depend on the processing

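Beside 22 members that rose and 1 that fell, the counts were 7 and 3 with median-of-ratios scaling, 8 and 3 with quantile normalization, 37 and 7 with array weights, and 7 and 3 with the length trend removed. Median-of-ratios scaling left 4 that rose without PAD4-/- replicates 3 and 4, and 5 with the replicate block, with 1 that fell in each. Leaving out each library in turn gave 13 to 26 that rose and 1 to 4 that fell, and 13 of the 23 called members kept their call in all 8 of these fits. No called result turned its direction in any alternative; a change of sign without a call was not counted as such. Under the replicate block alone 18 rose and 1 fell. Same-numbered libraries did not deviate together (r = -0.032, -0.144, -0.06 and -0.06), and not every library correlated best with its own number. With 4 libraries per group this cannot show whether same-numbered libraries were made together, which the labels do not say. Apart from the scaling, which moved the median of all genes from the 0.082 of the deposited values to 0.0049, the cause of these shifts was not tested. FPKM give no depth, so precision is limited by the 4 libraries per group.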
